A study of Mus musculus with 2 samples.

Results

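Zfp genes encode zinc finger proteins, the largest group of sequence-specific DNA-binding proteins in mammals. Most of them carry a tandem array of zinc fingers, short folds in which cysteines and histidines hold a zinc ion and which each contact a few bases of DNA. Many also carry a KRAB domain, which recruits the corepressor TRIM28 (KAP1) and through it the histone methyltransferase SETDB1 and repressive histone methylation, best known for silencing retrotransposons and for keeping imprints in embryonic stem cells. Their genes lie in clusters that arose by repeated duplication, and the finger array is usually encoded by the last exon. A typical Zfp gene therefore has a CpG-rich promoter at its start and a long coding exon made of repeated finger units at its end.

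The genes described here were the autosomal protein-coding genes with a GENCODE M21 symbol of Zfp and digits, apart from the imprint regulator Zfp57 and the pluripotency gene Zfp42 (Rex1), that had at least 10 listed CpG cytosines within the gene. This held for 259 of 20722 autosomal genes with a coding transcript. Of 356 genes with such a symbol, 56 had 1 to 9 listed cytosines and 41 had none. Among the 259 genes, 66 lay on chromosome 7, 23 on chromosome 17 and 18 on chromosome 8, and 144 had another Zfp gene within 200 kb.

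Methylation was read by reduced representation bisulfite sequencing (RRBS), which covers a CpG-rich part of the genome, in 1 XX and 1 XO library of female Xmas mESCs. Xmas mESCs are mouse embryonic stem cells of the C57/Bl6 strain in which reporters driven by the Hprt promoter mark each X chromosome in another colour. FACS separated cells with both X chromosomes (XX) from cells that had lost one (XO) after 7 passages in the study's modified culture method, as the labels give it, although the study's text gives a different passage number. The file gave percent methylation for 1782730 cytosines, with both strands of a CpG listed separately, and no RNA was analysed here, so the identity of the cells was not checked by marker genes.

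With 1 library per karyotype, no difference has a replicate error and none was tested. Regions with at least 5 listed cytosines were called measured, a region's value is the mean over its listed cytosines, and its SD is the spread between those cytosines. The read depth is unknown. Differences are XX minus XO in percentage points, and a difference of at least 20 points in size was counted. Fall and rise name only the sign of this difference, since no change over time was measured. For scale, the difference taken from the forward strand and that from the reverse strand differed by a median of 4.58 points at 220 promoters, 3.94 points at 255 gene bodies and 6.94 points at 89 last exons. The strands gave the same sign at 113 of those promoters, 183 of those gene bodies and 66 of those last exons.

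Sequences from the genes on which the results turn are shown first, read from the GRCm38.p6 genome, 5′ to 3′ on the strand of the gene, with each listed CpG in capitals. The first set lies in the coding part of last exons. It holds the windows with the most listed CpGs in Zfp11, Zfp408 and Zfp618, whose last exons were lower in XX cells. Windows chosen likewise are shown from Zfp580, which was higher in XX cells, and Zfp316, which had little methylation in both. Zfp316 was the gene with the most listed cytosines in its last exon.
Zfp11, chr5:129657523-129657672, minus strand: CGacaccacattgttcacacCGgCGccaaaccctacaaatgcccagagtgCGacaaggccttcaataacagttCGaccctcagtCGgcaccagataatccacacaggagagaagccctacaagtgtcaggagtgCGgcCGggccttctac
Zfp408, chr2:91645686-91645835, minus strand: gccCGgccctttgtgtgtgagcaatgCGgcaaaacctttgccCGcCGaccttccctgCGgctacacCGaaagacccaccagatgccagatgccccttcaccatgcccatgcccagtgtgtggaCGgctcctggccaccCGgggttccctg
Zfp618, chr4:63133423-63133572, plus strand: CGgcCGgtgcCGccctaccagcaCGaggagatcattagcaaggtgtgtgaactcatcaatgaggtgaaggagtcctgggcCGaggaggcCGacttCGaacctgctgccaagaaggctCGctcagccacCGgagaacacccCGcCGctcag
Zfp580, chr7:5053183-5053332, plus strand: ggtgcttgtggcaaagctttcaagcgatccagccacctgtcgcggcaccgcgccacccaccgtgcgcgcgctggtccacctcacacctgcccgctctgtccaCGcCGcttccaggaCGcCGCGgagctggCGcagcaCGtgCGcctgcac
Zfp316, chr5:143253753-143253902, minus strand: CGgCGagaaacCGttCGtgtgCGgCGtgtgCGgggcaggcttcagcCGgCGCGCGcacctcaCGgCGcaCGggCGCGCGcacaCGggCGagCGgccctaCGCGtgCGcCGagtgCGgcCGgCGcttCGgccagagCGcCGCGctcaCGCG

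In the Zfp11 window the 13 listed cytosines ranged from 20% to 63.3% in XX cells and from 66.7% to 96.7% in XO cells, so these ranges did not overlap. Elsewhere in that exon they did, with XX values up to 92.9% and XO values down to 40%, although 40 of its 45 cytosines were lower in XX cells. The Zfp408 window averaged 33.3% in XX against 72.4% in XO cells over 9 cytosines, all of them lower in XX cells. In the Zfp618 window 13 of 14 cytosines were lower in XX cells. The Zfp580 window went the other way, with 86.7% to 100% in XX and 47.1% to 64.7% in XO cells at 8 cytosines. The Zfp316 window held 33 listed CpGs in 150 bases, and its 66 cytosines averaged 2.50% in XX against 0.348% in XO cells.

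The second set lies within 1 kb of the gene start and outside annotated exons. Zfp82 and Zfp14 are shown from the promoters that fell by at least 20 points, and Zfp868 and Zfp661 from those that were higher in XX cells.
Zfp82, chr7:30072475-30072624, minus strand, from 276 to 425 bases downstream of the start: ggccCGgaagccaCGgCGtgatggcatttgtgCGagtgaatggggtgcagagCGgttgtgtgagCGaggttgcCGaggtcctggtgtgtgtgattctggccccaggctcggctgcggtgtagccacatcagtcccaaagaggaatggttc
Zfp14, chr7:30050934-30051083, minus strand, from 297 to 446 bases downstream of the start: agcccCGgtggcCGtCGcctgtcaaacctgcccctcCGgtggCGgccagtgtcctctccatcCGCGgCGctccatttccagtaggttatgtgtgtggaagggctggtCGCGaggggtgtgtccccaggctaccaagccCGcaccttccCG
Zfp868, chr8:69625114-69625263, minus strand, from 285 to 434 bases downstream of the start: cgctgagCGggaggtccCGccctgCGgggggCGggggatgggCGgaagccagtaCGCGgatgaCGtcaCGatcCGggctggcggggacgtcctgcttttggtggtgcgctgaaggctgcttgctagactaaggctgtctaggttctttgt
Zfp661, chr2:127587486-127587635, minus strand, upstream of the start: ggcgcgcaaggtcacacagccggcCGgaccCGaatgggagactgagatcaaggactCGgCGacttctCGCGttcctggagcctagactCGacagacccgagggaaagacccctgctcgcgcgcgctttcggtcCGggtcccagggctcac

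The 7 listed cytosines of the Zfp82 window ranged from 17.9% to 32.1% in XX and from 30% to 80% in XO cells. In the Zfp14 window XX cells were almost unmethylated, between 0% and 3.70% at 16 cytosines, whereas XO cells ranged from 3.57% to 45.7%. At Zfp868 all 10 cytosines were higher in XX cells (36.4% to 45.5%) than in XO cells (4.17% to 29.2%). At Zfp661 the 8 cytosines averaged 16.1% in XX against 4.69% in XO cells, and 2 of them were lower in XX cells.

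Zfp promoters had little methylation in either karyotype. Over 232 measured promoters, each reaching 1 kb to both sides of the gene's start, the median was 6.93% in XX against 8.52% in XO cells. All other promoters were near this, with medians of 7.34% in XX and 8.66% in XO cells. In XO cells 37 Zfp promoters (15.9%) had 20% or more, near the background of 17.1% of all measured promoters. In XX cells 24 did (10.3%), against 12.1%. In 18 Zfp genes no cytosine was listed at the promoter, and in 9 there were 1 to 4.

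The median difference at Zfp promoters was -1.15 points, with quartiles of -3.79 and 1.47, and that of all other promoters was -1.28 points. With the median over the cytosines of a promoter in place of the mean, the Zfp median was 0. XX cells were lower at 144 Zfp promoters and higher at 88, so 62.1% were lower, beside 65.3% of all measured promoters. XX cells were lower by 20 points or more at 4 Zfp promoters, a share of 1.72% against a background of 3.28%. At least 20 points higher were 2 Zfp promoters, against a background of 0.238%. With a threshold of 10 points, 17 were lower (background 9.51%) and 7 higher (1.69%), and with 30 points 1 was lower (0.927%).

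The largest fall at a promoter was in Zfp82, one of the zinc finger genes in a cluster on chromosome 7. Its 11 listed cytosines averaged 29.1% ± 4.70 (SD) in XX against 59.4% ± 18.2 in XO cells, all 11 were lower in XX cells, and the difference was -25.8 points from 4 forward and -32.8 points from 7 reverse cytosines. It was also the Zfp promoter with the highest value in XO cells among those with at least 10 cytosines. Nearby Zfp14 fell from 24.4% ± 24.95 in XO to 3.60% ± 8.65 in XX cells over 18 cytosines, lower in 18 of 18.

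Zfp141, also on chromosome 7, averaged 9.19% ± 10.1 in XX against 35.9% ± 20.5 in XO cells at 11 promoter cytosines, and all 11 were lower. For 5 of these cytosines the surrounding 50 bases had an exact copy elsewhere in the genome, where reads cannot be placed with certainty. The difference was -21.1 points without them, and -16.4 points within 500 bases of the start, short of 20 points. Zfp831 on chromosome 2 completed the falls of at least 20 points, with 21.7% in XX against 47.6% in XO cells over 7 cytosines. Zfp770 (10.3% in XX against 29.1% in XO cells over 27 cytosines) and Zfp575 (19.2% and 37.8% over 13) came just short of 20 points.

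Most methylated Zfp promoters differed less. Of the 37 with 20% or more in XO cells, 27 were lower in XX cells, 4 of them by at least 20 points (10.8%). In the same range, 19.3% of 2197 other promoters fell that far. The median differences were -7.72 points in Zfp and -9.84 points in other genes, and choosing promoters by their XO value favours falls in both. Zfp691 averaged 51.8% ± 5.18 in XX against 59.1% ± 21.1 in XO cells over 13 cytosines, of which 9 were lower in XX cells. Its 3 forward-strand cytosines were 13.96 points higher and its 10 reverse-strand cytosines 13.6 points lower. Zfp180 averaged 24.6% in XX against 37.3% in XO cells over 26 cytosines and was lower on both strands.

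The 2 promoters that were at least 20 points higher in XX cells rested on few cytosines, on 1 strand each. The falls at Zfp82, Zfp141 and Zfp831 also rested on few, 11, 11 and 7, but from both strands. The 7 reverse-strand cytosines of Zfp82 lay in the window shown, where single reads can cover several. Zfp935 had 53.1% at each of its 5 listed cytosines in XX cells, with an SD of 0, and 22.0% ± 6.71 in XO cells. Those 5 cytosines lay on 1 strand within 49 bases, where a single read can cover them all. The 10 cytosines of Zfp868 lay on the forward strand within 67 bases and averaged 43.6% ± 3.83 in XX against 20% ± 9.58 in XO cells.

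Zfp110, which encodes the neurotrophin receptor interacting factor Nrif1, was higher over more cytosines. Its promoter averaged 31.9% ± 23.3 in XX against 17.7% ± 15.6 in XO cells over 42 cytosines, 35 of them higher in XX cells, and both strands were higher. The rise was uneven along the promoter. From 190 to 41 bases upstream of the start, 14 of these cytosines averaged 9.58% in XX against 8.77% in XO cells, with 11 higher and 2 lower. The Zfp110 gene body was higher as well, at 47.1% ± 14.6 in XX against 23.8% ± 15.9 in XO cells over 27 cytosines, partly the same ones as at the promoter. At Zfp661 the promoter averaged 24.9% in XX against 9.47% in XO cells, but the 8 forward-strand cytosines were 3.39 points lower and the 26 reverse-strand cytosines 21.2 points higher.

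**Figure D1:**
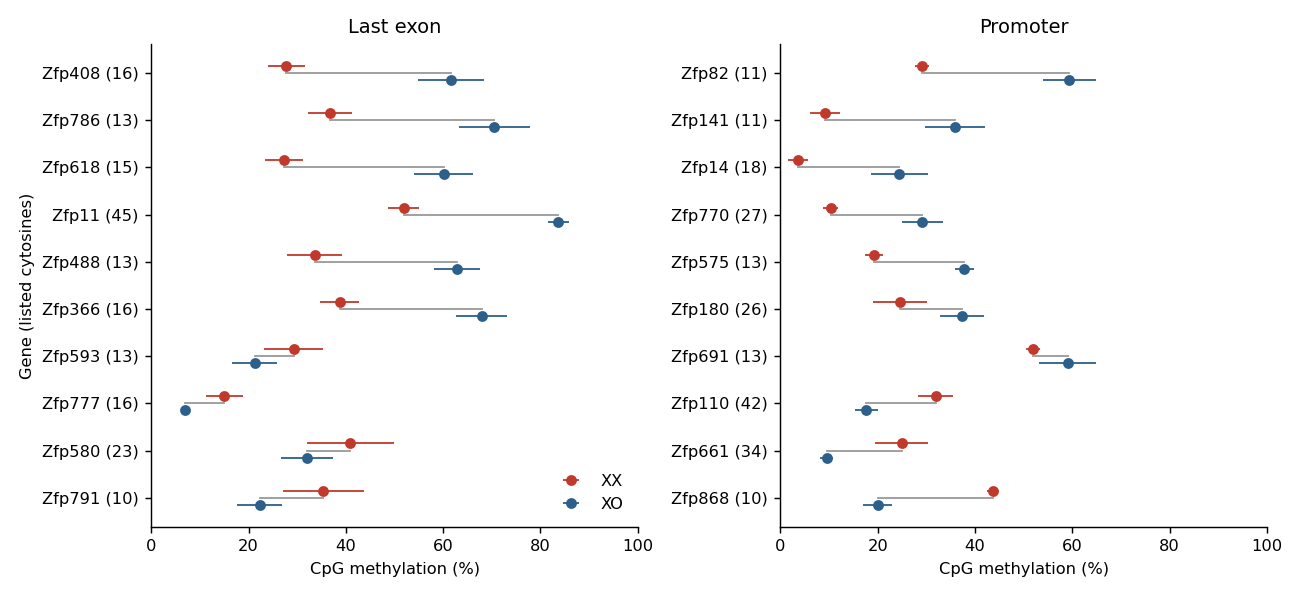
Mean CpG methylation (%) in XX (red) and XO (blue) cells at last exons (left) and promoters (right) of named Zfp genes with at least 10 listed cytosines, whose number is in parentheses; error bars are the standard error over those cytosines, not replicate error. At Zfp11 the means were 51.9% in XX against 83.7% in XO cells, and at Zfp868, Zfp661 and Zfp110 the order was reversed.

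Gene bodies carried more methylation than promoters and a wider gap between the karyotypes. Over all 259 Zfp genes the median was 13.8% in XX against 17.3% in XO cells. The median difference was -4.37 points, and -6.15 points over all other genes. XX cells were lower in 217 Zfp genes and higher in 42, a share lower of 83.8% beside a background of 87.4%. At least 20 points lower were 15 genes, 5.79% against a background of 9.18%, and at least 20 points higher were 2, Zfp110 and Zfp868, against 0.0696%, and the Zfp868 value rests on the same 10 cytosines as its promoter. At 10 points, 53 were lower (background 32.1%) and 3 higher (0.608%), and at 30 points 5 were lower (1.87%). Of the Zfp gene bodies, 112 had 20% or more in XO cells (43.2%, background 53.2%) and 74 in XX cells (28.6%, background 35.4%).

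These gene-body values depended on the CpG-rich start of the gene. Without the first 1 kb of the gene, 191 Zfp genes were measured, the medians were 26.4% in XX against 36.8% in XO cells, and the median difference was -10.3 points. All other genes then had 26.7% in XX against 42.7% in XO cells and a median difference of -13.9 points. At least 20 points lower were 38 of the 191 Zfp genes (19.9%) and 25.4% of the other genes.

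The gene body with the largest fall was that of Zfp667 on chromosome 7, from 59.9% ± 20.9 in XO to 22.3% ± 15.9 in XX cells over 12 cytosines. Zfp951 on chromosome 5 had the highest XO value among the large falls after Zfp981, with 79.0% ± 16.3 in XO and 47.9% ± 19.9 in XX cells over 17 cytosines. Zfp61 fell from 48.5% to 17.8% over 30 cytosines. In all 15 genes with a fall of at least 20 points, both strands were lower in XX cells. Choosing genes by the mean over both strands favours this. Exactly 10 listed cytosines, just inside the rule that chose the genes, were held by 8 Zfp genes. Their differences ran from -36.3 to 23.6 points, with a median of -6.88 points. The 8 genes with exactly 9, which were left out, had a median of -12.2 points, from -25.9 to 8.78.

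**Figure D2:**
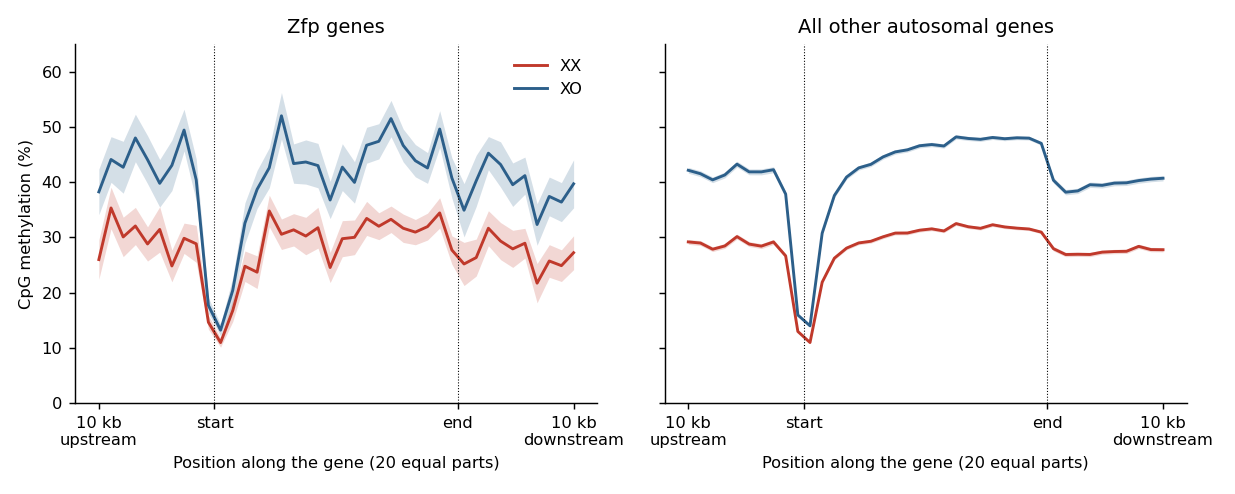
Mean CpG methylation (%) in XX (red) and XO (blue) cells along Zfp genes (left) and all other autosomal genes (right), in 20 parts of equal size per gene and 10 per flank of 10 kb; shading is the standard error over genes. XX lay below XO in 40 of 40 parts in both sets, and the gap was narrow at the start, with 10.98% in XX against 13.2% in XO cells where the Zfp gene body begins.

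Of promoters, whole gene bodies and last exons, last exons had the highest medians. The last exon of a Zfp gene was long, with a median of 2389 bp against 1115 bp in all other genes, and the translated coding sequences held a median of 10 zinc fingers. At least 1 finger was found in 250 genes, and in 182 genes every finger was encoded by the last exon. The linker between successive fingers is strongly conserved, and its coding motif ACNGGNGANAANCC, read on the coding strand, occurred in the last exon of 160 Zfp genes (61.8%) and of 2.003% of all genes, up to 18 times in one exon. On the opposite strand it occurred in 0 Zfp genes and 0.135% of all genes.

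RRBS reached only part of these exons. The last exon was measured in 101 Zfp genes, had 1 to 4 listed cytosines in 35 and none in 123. In the measured exons the median was 26.4% in XX against 34.2% in XO cells. All other measured last exons had nearly the same median in XO cells, 34.3%, and a lower one in XX cells, 21.005%.

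The median difference at Zfp last exons was -8.83 points, with quartiles of -17.4 and -1.82, and that of other last exons was -10.7 points, with quartiles of -20.5 and -2.47. XX cells were lower at 87 Zfp last exons (86.1%), beside 85.2% of all measured last exons. At least 20 points lower were 19 Zfp last exons, 18.8% against a background of 25.9%. None was at least 20 points higher, where the background was 0.406%, and the highest difference was 14.8 points. At 10 points, 49 were lower (background 51.7%) and 2 higher (1.81%), and at 30 points 6 were lower (7.52%). In XO cells 75 Zfp last exons had 20% or more (74.3%, background 69.0%), and in XX cells 63 did (62.4%, background 52.3%). Of 18 last exons with a fall of at least 20 points and cytosines on both strands that could be compared, 17 were lower on both. Their choice by the mean over both strands favours this as well.

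**Figure D3:**
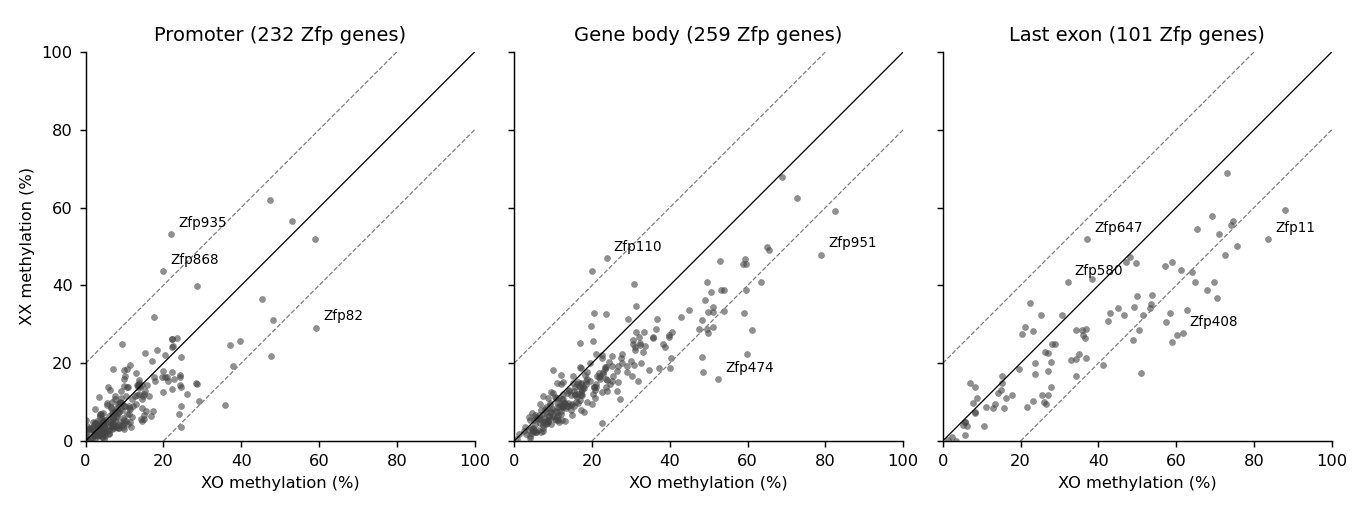
Mean CpG methylation (%) of Zfp genes in XX cells against XO cells at promoters, gene bodies and last exons, 1 point per gene with at least 5 listed cytosines; the solid line marks equal values and the dashed lines a difference of 20 points. Points below the solid line are lower in XX cells, which held for 144 of 232 promoters, 217 of 259 gene bodies and 87 of 101 last exons.

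Zfp408, whose human counterpart is mutated in inherited retinal disease, had the largest fall at a last exon. Its 16 cytosines averaged 27.8% ± 15.5 (SD) in XX against 61.6% ± 26.99 in XO cells, and 16 of 16 were lower in XX cells. Zfp786 followed, with 36.7% ± 16.1 in XX against 70.5% ± 26.3 in XO cells over 13 cytosines. Its promoter went the other way at a low level, with 5.51% in XX cells and 0% at all 26 cytosines in XO cells.

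Zfp11, with 21 predicted fingers, gave the best-covered large fall. Its last exon averaged 51.9% ± 21.1 in XX against 83.7% ± 14.8 in XO cells over 45 cytosines, of which 40 were lower in XX cells. The difference was -28.5 points from forward-strand and -35.4 points from reverse-strand cytosines, while its promoter averaged 4.52% in XX against 2.43% in XO cells. In Zfp618 the last exon fell from 60.1% ± 23.6 to 27.4% ± 15.2 over 15 cytosines, and its promoter was under 1% in both (0.689% and 0.132% over 103 cytosines).

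Zfp488, which acts in oligodendrocyte differentiation, fell from 62.8% ± 16.8 in XO to 33.6% ± 20.3 in XX cells over 13 cytosines. Zfp366, known from dendritic cells as DC-SCRIPT, fell from 67.9% ± 20.8 to 38.7% ± 15.8, with 16 of 16 cytosines lower. At Zfp661 the last exon had a difference of -29.04 points over 8 cytosines, which came from the forward strand (-61.1 points), while the reverse strand differed by 3.06 points.

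Few last exons were higher in XX cells. Among the 83 with at least 10 listed cytosines, Zfp791 had the largest rise, with 35.4% ± 26.3 in XX against 22.3% ± 14.7 in XO cells over 10 cytosines. Its difference was 2.46 points from 4 forward and 20.1 points from 6 reverse cytosines. Zfp580 averaged 40.9% ± 42.7 in XX against 32.1% ± 25.7 in XO cells over 23 cytosines, of which 14 were higher, and the difference was -7.91 points with medians over cytosines. The Zfp580 difference was -12.07 points from 3 forward and 11.9 points from 20 reverse cytosines. Its largest rises in the exon lay from 1748 to 1817 bases after the gene start, where single reads can cover several cytosines. Its difference changed along the exon, with 62.8% in XX against 42.3% in XO cells over 13 coding cytosines and 12.9% and 20.5% over 9 noncoding ones. Zfp777 and Zfp593 were higher by 8.12 and 7.99 points, and the Zfp777 rise came from the reverse strand alone (19.7 points, against -3.49 points on the forward strand). Zfp647, with 7 listed cytosines, had 52.0% in XX against 37.2% in XO cells.

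**Figure D4:**
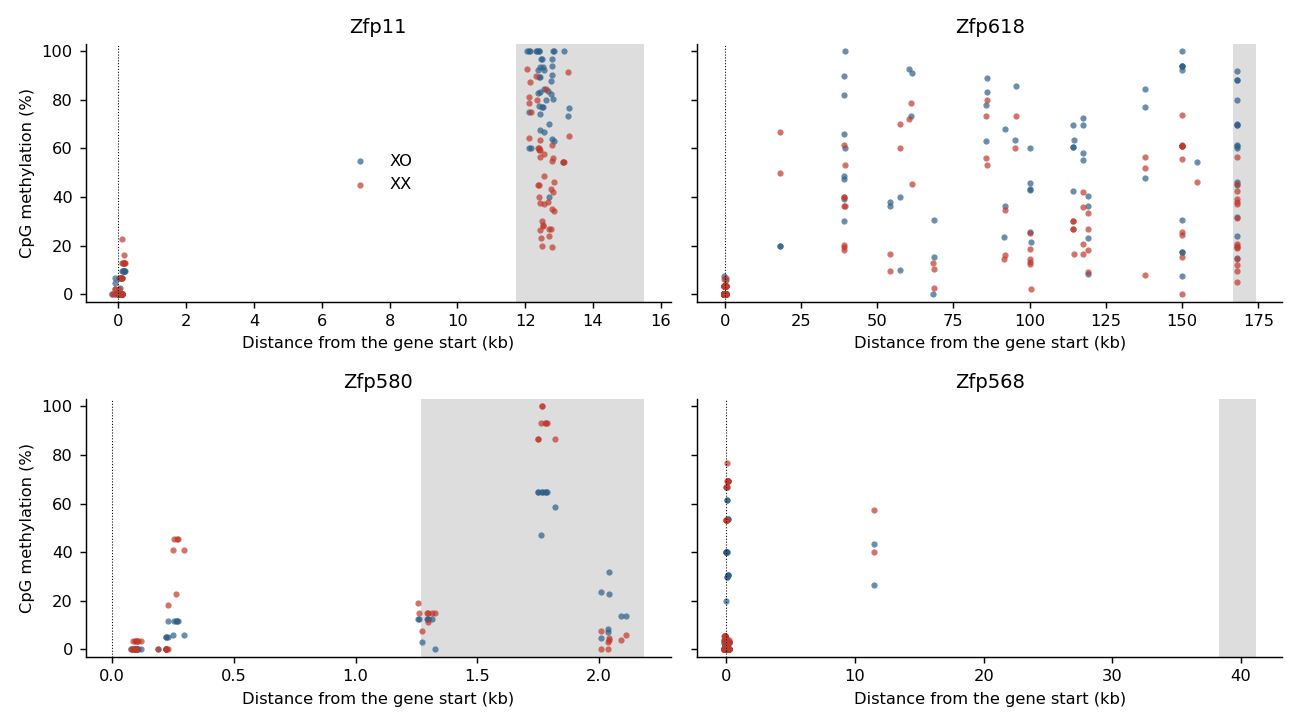
Percent methylation of every listed cytosine in XX (red) and XO (blue) cells against distance from the gene start (kb) for 4 Zfp genes, with the start as a dotted line and the last exon shaded. Zfp11 and Zfp618 had little methylation at the start and were lower in XX cells in the last exon, a stretch of the Zfp580 last exon was higher in XX cells, and in Zfp568 no cytosine was listed in the last exon.

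Start and end of the same gene could be compared in 89 Zfp genes. The last exon was above the promoter by a median of 18.1 points in XX and 25.7 points in XO cells, and by 10.1 and 19.7 points in other genes. It was at least 20 points above the promoter in 38 genes in XX cells (42.7%, background 31.8%) and in 52 genes in XO cells (58.4%, background 49.9%). In both karyotypes the last exon was therefore the more methylated end of most of these genes.

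In 70 of the 89 genes (78.7%, background 73.6%) the XX value was further below XO at the last exon than at the promoter. In XO cells the median of these genes was 8.12% at the promoter and 32.1% at the last exon. A promoter with little methylation in XO cells can be only slightly lower in XX cells, which favours this order. How far this set the count was not tested. Both regions were lower in XX cells in 44 genes, and 34 had a lower last exon with a higher promoter, beside 1734 and 788 of 2963 other genes. Across the 89 genes the difference at the promoter had a Pearson correlation of 0.017 with that at the last exon, whereas across 232 genes it had one of 0.51 with that of the gene body, which shares cytosines with the promoter. All values in these correlations come from the same pair of libraries. Low promoter values in XO cells also limit how far promoters can be lower in XX cells. The effect of this limit on the correlations was not tested.

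The XX value was also expressed as a share of the XO value of the same last exon, where XO cells had at least 20%. The XO value thus both chose the exons and entered the ratio, in Zfp and other genes alike, so these shares are a description and support no difference between the sets. The share was a median of 69.9% in 75 Zfp genes (quartiles 56.8% and 83.4%) and 62.1% in 2478 other genes (quartiles 50.4% and 75.9%), so the ranges overlapped widely. By XO level the shares were 76.9% against 63.4% where XO cells had 20% to 40%, 69.5% against 60.7% at 40% to 60%, and 66.2% against 62.9% from 60%. Over 8 alternative settings the share ran from 63.5% to 71.01% in Zfp genes and from 57.3% to 62.7% in other genes. The number of cytosines per exon, a median of 16 in Zfp and 12 in other last exons, differed as well, and its part in the result was not tested.

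At promoters the shares were 70.1% in 37 Zfp genes and 68.7% in 2197 others. In gene bodies they were 71.4% in 112 Zfp genes and 66.2% in 8297 others.

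**Figure D5:**
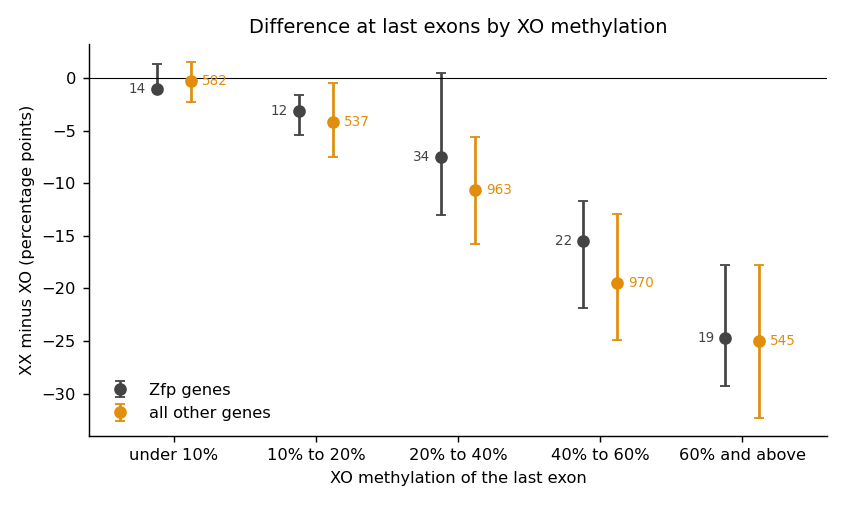
Median XX minus XO difference (percentage points) at last exons of Zfp genes (grey) and all other genes (orange), grouped by methylation in XO cells; bars run from the lower to the upper quartile and the numbers count genes. In Zfp genes the medians ran from -1.05 points under 10% to -24.7 points from 60%, an order that the grouping by XO values itself favours.

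Methylation levels differed between kinds of Zfp gene, while the median difference at last exons was negative in each kind. A KRAB core sequence was found by pattern in 85 of the 259 proteins, but not in Zfp445, which is known to carry a KRAB domain. Their last exons had medians of 34.2% in XX against 48.1% in XO cells (27 genes), and those without it 22.5% and 29.7% (74 genes), while the median differences were -9.94 and -7.82 points. With a wider form of the core, chosen after the data were seen, 102 proteins held it and the differences were -12.2 and -7.08 points. Last exons with 15 or more fingers had medians of 33.0% in XX against 49.3% in XO cells over 19 genes, those with 10 to 14 had 27.3% and 34.3% over 35, those with 5 to 9 had 20.04% and 27.9% over 29, and those with 0 to 4 had 28.2% and 34.5% over 18, so the level did not rise steadily with the number of fingers.

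Zfp genes with a Zfp neighbour within 200 kb had a median difference of -7.56 points at 57 last exons, and those without one had -11.5 points at 44. On chromosome 7 the median difference was -9.39 points at 34 last exons, and on the other autosomes -8.08 points at 67. Within the last exon, the finger array gave 23.96% in XX against 28.7% in XO cells over 71 genes. The coding part gave 25.8% and 33.3% over 90 genes, and the noncoding part 29.3% and 37.7% over 23. These medians cover different genes, and only 14 had both coding and noncoding parts measured, so they do not compare parts of the same exons.

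A small set of last exons was rich in CpG and lower in methylation. In 12 measured exons the ratio of observed to expected CpGs was at least 0.6, and their medians were 13.002% in XX against 14.3% in XO cells with a median difference of -0.70 points, although 4 of the 12 had 20% or more in each karyotype. In the 89 others the median difference was -11.5 points. Zfp316 had 7.49% in XX against 8.18% in XO cells over 337 cytosines, Zfp771 3.95% and 6.25% over 183, and Zfp703, a developmental transcriptional regulator, 4.97% and 5.67% over 168.

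The CpG-rich exons were not all alike. Zfp787 had 21.4% in XX against 36.7% in XO cells over 39 cytosines, and Zfp580, Zfp647, Zfp791 and Zfp30 were higher in XX cells. Across 101 last exons the CpG ratio had a Pearson correlation of -0.47 with XO methylation and of 0.42 with the difference.

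Among genes chosen for their known roles, Zfp809 and Zfp445 had nearly unmethylated promoters. Zfp809, which recognises proviruses, averaged 3.74% in XX against 3.84% in XO cells over 17 promoter cytosines. Zfp445, which maintains imprints, averaged 4.35% and 4.46% over 62. Zfp568, the repressor of a placental Igf2 transcript, was higher in XX cells, with 19.4% ± 28.2 in XX against 11.4% ± 19.0 in XO cells over 58 promoter cytosines, of which 40 were higher and 2 lower. Its gene body had 32.9% and 20.6% over 28 cytosines, with 22 higher and 0 lower, and nearly all of these were also counted at the promoter. The large Zfp568 promoter rises lay from 52 bases before to 138 bases after the start. Neighbouring cytosines there often had identical values and can share single reads, so these counts are not independent.

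Zfp462, a chromatin regulator of pluripotent cells, had a promoter of 13.9% in XX against 5.73% in XO cells over 31 cytosines, 28 of them higher in XX cells, and a last exon of 16.8% in XX against 34.2% in XO cells over 16. Zfp335, a regulator of neural progenitors, had promoter values of 8.79% and 6.53% and last-exon values of 21.1% and 34.3% over 14 cytosines.

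Zfp281, a pluripotency factor whose last exon begins near its start, had 4.80% in XX against 5.84% in XO cells there over 37 cytosines and 14.3% against 9.94% over 78 promoter cytosines, partly the same ones, so its end was the less methylated. The long gene Zfp423, a cofactor in neural and adipocyte development, had 494 listed cytosines, the most of all 259, with 18.05% in XX against 26.4% in XO cells over the gene body. Zfp36 encodes tristetraprolin, an mRNA decay factor with a different finger fold, and its promoter had 6.37% in XX against 6.14% in XO cells.

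A list of 13 genes held Trim28 and Setdb1, further genes of heterochromatin and DNA methylation (the HP1 genes, Atf7ip, Morc3, Daxx, the X-linked Atrx, Dnmt1 and Uhrf1), and the genes Zfp57 and Zfp42 that were left out above. All 13 gene bodies were measured, 12 were lower in XX cells which is near the background of 87.4%, and 1, Morc3, was higher (7.27% in XX against 5.09% in XO cells). None of the 7 measured promoters or 13 gene bodies differed by 20 points, where the backgrounds of falls were 3.28% and 9.18%, with ranges of -10.6 to 2.21 and -13.4 to 2.18 points. Trim28 had 12.9% in XX against 14.6% in XO cells over 114 gene-body cytosines, and Setdb1 17.2% and 28.7% over 22.

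Like families of zinc finger genes also had lower medians in XX cells. The median difference at last exons was -11.9 points in 17 Zbtb genes, which pair zinc fingers with a BTB domain, -17.2 points in 7 Zscan and Zkscan genes, which carry a SCAN domain, and -10.6 points in 6 Klf genes, against -8.83 points in Zfp genes, the smallest of these medians in size. At promoters the medians were -1.04, -1.98 and -1.87 points, against -1.15 points.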

How the data were processed

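Genomic DNA of sorted XX and XO Xmas mESCs was sequenced by RRBS after a NuGEN Ovation library preparation. The authors deposited percent methylation per cytosine for both libraries. The submitters' processing notes name bcl2fastq, Bismark and mm10, and a coverage minimum is not given in the sources used here. The table had 0 columns of other samples. All but 51 positions lay on CpG cytosines of GRCm38.p6, and no position was removed. Percentages from few reads move in large steps, so single cytosines are imprecise, and PCR duplicates cannot be seen.

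Genes came from GENCODE M21, with 1 coding transcript chosen per gene, and 85 genes without one were left out. Fingers and the KRAB core were found by pattern in the translated coding sequence. Exact copies of the 50 bases around each cytosine were searched on both strands and were found for 0.252% of promoter, 0.640% of gene-body and 0.181% of last-exon cytosines. Named genes, each with at least 10 cytosines in the region, were the 6 largest falls and 4 largest rises or smallest falls at last exons, the 5 largest falls, 3 largest rises and 5 highest XO values at promoters, and a list of genes of known function. Of that list, Zfp932 had 7 listed cytosines and was not included, and other genes named were picked after their values were seen. The members and lists were chosen with earlier results of these data known. Alternatives changed the minimum of cytosines, the strand, the region bounds, the summary and the threshold. Code was tested on simulated data and run in Python 3.11.15 with numpy 2.4.6, pandas 2.3.3 and numba 0.67.0.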

Additional observations from a re-analysis of the deposited data

How the results depend on the processing

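With 1 library per karyotype no result has a replicate error, and the depth is unknown. No paired analysis was possible because each karyotype has 1 library. A median was said to move when it left the 95% interval of the median over genes, a count when it changed by over 1.5 times, and a gene's value when it left the 95% interval over its cytosines. Of 91 recalculated medians and counts, 72 did not move, 19 moved and 0 changed sign. Of 131 values of named genes, 117 did not move and 14 moved, of which 3 changed sign (Zfp777 at the last exon and Zfp661 at the promoter on the forward strand, and Zfp580 at the last exon with medians). Some settings removed no cytosine of a named gene, so its value could not move. A minimum of 3 or 10 cytosines likewise could not move the gene-body results, as all 259 genes held at least 10. The intervals also treat neighbouring cytosines as separate. Zfp593 at the last exon thus went from 7.99 to 0.63 points with medians and was not counted as moved. The promoter median was -1.75 points without cytosines at exactly 0% or 100% in both libraries, -1.60 on the reverse strand and 0 with medians over cytosines. Promoters at least 20 points lower numbered 8 without those cytosines and 1 within 500 bases of the start, and 17 and 1 at thresholds of 10 and 30 points. The gene-body median was -5.67 points without those cytosines, -2.08 with medians and -10.3 without the first 1 kb. Falls in gene bodies numbered 26 with medians, 38 without the first 1 kb, and 53 and 5 at 10 and 30 points. Falls at last exons numbered 12 with at least 10 cytosines, which leaves 83 genes, 29 with medians, and 49 and 6 at 10 and 30 points. The XX share of the XO value at last exons was 63.5% with medians. Apart from the settings that remove cytosines or genes or change the threshold, the cause was not tested.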
